A study of Mus musculus with 12 samples.

Results

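Glycolysis turns glucose into pyruvate, and 10 mouse genes along that route were followed in thymocytes, the developing T cells of the thymus. They are the glucose carriers Slc2a1 and Slc2a3, the hexokinases Hk1 and Hk2, the phosphofructokinases Pfkl and Pfkp, aldolase Aldoa, pyruvate kinase Pkm, lactate dehydrogenase Ldha and the lactate carrier Slc16a1. They were chosen by name as genes of glucose uptake and glycolysis, with earlier results of these data known. They make up 10 of the 55335 gene rows of the count tables. All 10 passed the filter on low counts in both assays. RNA-seq and ribosome footprinting, which sequences the stretches of mRNA that ribosomes shield from nuclease, were carried out on thymocytes of 6-week-old mice. The wild-type (WT) mice numbered 3, and so did the mice lacking the paired microRNA genes Mir181a-1 and Mir181b-1 (KO), which gave 12 libraries in 4 groups of 3. Thymocytes were collected from thymus with a strainer, with no sort named, and went straight into cycloheximide, which stalls ribosomes. The labels give neither strain nor sex nor how the deletion was made, and they do not tie an RNA-seq library to a footprint library of the same mouse.

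Cells take up glucose through carriers of the GLUT family, trap it by phosphorylation with hexokinase, commit it to glycolysis at phosphofructokinase, split it with aldolase and make pyruvate with pyruvate kinase. Lactate dehydrogenase turns pyruvate into lactate, which leaves the cell through monocarboxylate carriers. Thymocytes raise glucose use when they proliferate after assembling the T cell receptor beta chain, and most thymocytes in the adult organ are later, small, resting cells that carry both CD4 and CD8. MicroRNAs of the miR-181 family are abundant in those cells, and PI3K-Akt-mTOR signalling, Myc and the hypoxia factors are known activators of glycolytic genes.

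The deleted genes encode the microRNAs below, shown because their loss is the comparison made throughout. Sequences are from RefSeq (GRCm38.p6), 5′ to 3′, with the seed, bases 2 to 8, in capitals. Both carry the same seed, whose complement in a target reads UGAAUGU.
mmu-miR-181a-5p, chr1:137966468-137966490, plus strand: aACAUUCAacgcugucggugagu
mmu-miR-181b-5p, chr1:137966650-137966673, plus strand: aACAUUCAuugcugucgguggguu
Footprint libraries held 133 to 166 CPM (reads relative to the scaled library total) at Mir181a-1 in WT and 0.464 to 1.04 CPM in KO, a log2 fold change of -7.47 (edgeR adjusted p (FDR) = 2.24e-05). In RNA-seq the same gene had 57 reads over the libraries labelled WT and 67 over those labelled KO (edgeR FDR = 0.756). It separated the footprint libraries by genotype and did not separate the RNA-seq libraries, so RNA-seq groups are given as labelled.

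Reads in genes numbered 4479182 to 8180286 per RNA-seq library and 4069968 to 17859770 per footprint library, the fewest in KO footprint replicate 3. The 10 genes took 0.0828% to 0.0990% of gene reads in RNA-seq and 0.201% to 0.214% in footprints. Libraries of 1 group differed beyond counting noise (chi-square over its degrees of freedom 5.24 to 12.9 in RNA-seq and 3.41 to 9.81 in footprints). Deviations from the group means were mirrored between genotypes: a WT library and the KO library of the same number correlated at -0.99 to -0.98 in RNA-seq over 5714 well-counted genes and at -0.99 in footprints over 5330. Different numbers correlated at 0.10 to 0.75 and at 0.40 to 0.64. The deposited counts are named adjusted with no account of the adjustment. The p-values therefore measure the spread between these adjusted libraries, which may not be the spread between mice. SE values and intervals given below come from a fit that treats mirrored libraries as independent, and may be too narrow.

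In KO footprints Hk1, Aldoa, Pkm and Ldha rose by 1.17-fold to 1.22-fold, and none of the 10 genes fell past the threshold. These 4 enzymes phosphorylate glucose, split the 6-carbon sugar, form pyruvate and form lactate. The 4 of 10 stand beside 17.6% of all 13509 genes tested in footprints, 9.25% of them higher in KO and 8.34% lower. The 10 genes had a median footprint log2 fold change of 0.13, with 8 above 0, against a median of -0.0090 over all genes, of which 48.4% were above 0. In RNA-seq 0 of the 10 were called by edgeR's quasi-likelihood test and 0 by DESeq2, where edgeR called 6.91% of 13652 genes (3.48% higher, 3.43% lower) and DESeq2 3.9%, and 0 had an unadjusted p under 0.05. DESeq2 called the same 4 genes in footprints, where it called 9.24% of all genes. With the replicate number as a block, edgeR called 0 of the 10 in RNA-seq, footprints and footprints beyond RNA, where it called 0.806%, 3.02% and 0.0169% of all genes. Their RNA log2 fold changes ran from -0.16 to 0.17 with 5 above 0 and a median of -0.02, against 49.9% above 0 and a median of -0.00053 over all genes. KO and WT libraries did not overlap for 5 of the 10 in footprints (38.1% of all genes) and for 1 in RNA-seq (30.9%). Whether RNA per cell or the mix of cells moved cannot be told apart in these bulk samples.

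**Figure D1:**
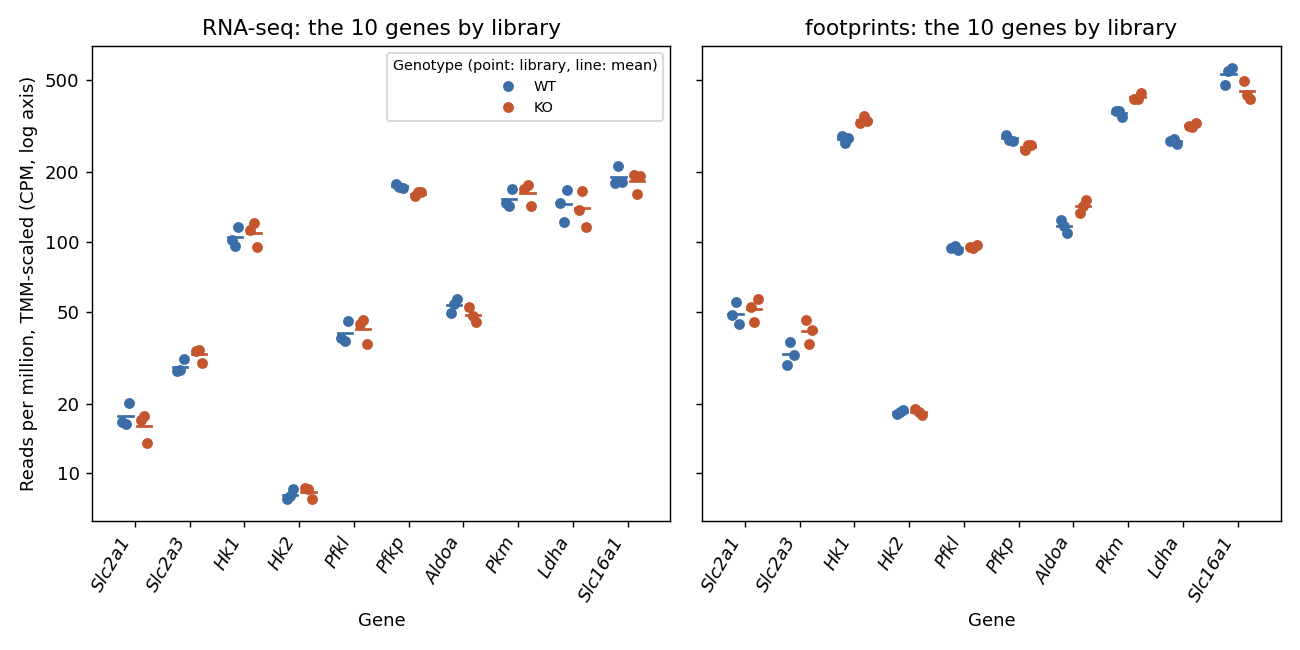
TMM-scaled CPM of the 10 genes on a log axis, RNA-seq on the left and footprints on the right, with 1 point per library and a line at the mean of the 3 WT (blue) or 3 KO (orange) libraries. In footprints all KO points lie above all WT points for Hk1, Aldoa, Pkm and Ldha and below them for Pfkp, and in RNA-seq KO and WT points separate for Pfkp.

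Slc2a1 (GLUT1, ENSMUSG00000028645.11) is the basal and growth-induced glucose carrier of T cells. Its footprints were 48.2, 54.9 and 44.1 CPM in WT and 52.4, 45.3 and 57.0 CPM in KO. The groups overlapped, with a log2 fold change of 0.04 (SE 0.11, n = 3 per group, edgeR FDR = 0.847) and a 95% interval of the fold from 0.856 to 1.23. RNA-seq gave 16.7, 16.3 and 20.2 CPM in libraries labelled WT and 17.0, 17.8 and 13.6 CPM in those labelled KO, from 75 to 147 reads per library, and these also overlapped (-0.16, SE 0.14, edgeR FDR = 0.537).

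Slc2a3 (GLUT3, ENSMUSG00000003153.10) is a carrier with high affinity for glucose. It had 29.3, 36.9 and 32.6 footprint CPM in WT and 45.8, 36.3 and 41.5 in KO. The lowest KO library lay inside the WT range. Its log2 fold change of 0.31 (SE 0.12) was the highest estimate among the 10 genes, but it did not pass the threshold (edgeR unadjusted p = 0.0350, FDR = 0.120). RNA-seq read 27.8, 27.9 and 31.1 CPM in libraries labelled WT and 33.8, 34.1 and 30.1 in those labelled KO (0.17, SE 0.08, edgeR FDR = 0.289), with 1 library labelled KO inside the WT range.

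Hk1 (ENSMUSG00000037012.18), the mitochondria-bound hexokinase found in most tissues, had 286, 268 and 281 footprint CPM in WT and 328, 350 and 333 in KO. Every KO library lay above every WT library. The mean went from 278 ± 9.44 to 337 ± 11.5 CPM (SD, n = 3 each), a fold of 1.21 with a 95% interval from 1.13 to 1.30 (log2 0.28, SE 0.04, edgeR FDR = 0.00885). RNA-seq showed 102, 95.7 and 117 CPM against 112, 121 and 95.6 in libraries labelled KO. Those values overlapped throughout (log2 0.06, SE 0.11, edgeR FDR = 0.799).

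Hk2 (ENSMUSG00000000628.10), the inducible hexokinase of growing cells and a known target of the hypoxia factors, had the fewest reads of the 10. Its footprints were 18.0, 18.3 and 18.9 CPM in WT and 18.9, 18.5 and 17.9 in KO, where KO replicate 3 rests on 73 reads. The log2 fold change was 0.01 (SE 0.05, edgeR FDR = 0.909) with a 95% interval of the fold from 0.925 to 1.10. With the replicate number as a block the SE was 0.13, so this interval may be too narrow to bound the change. RNA-seq read 7.79, 7.95 and 8.54 CPM against 8.63, 8.52 and 7.73 in libraries labelled KO, from 36 to 62 reads each (log2 0.03, edgeR FDR = 0.952). Both assays overlapped fully between genotypes.

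Pfkl (ENSMUSG00000020277.10), the liver-type phosphofructokinase, had 94.3, 95.7 and 91.9 footprint CPM in WT and 95.4, 93.7 and 97.5 in KO (log2 0.02, edgeR FDR = 0.904). In RNA-seq it read 38.3, 37.4 and 45.6 CPM against 44.3, 46.2 and 36.3 in libraries labelled KO (0.05, SE 0.12, edgeR FDR = 0.837). Groups overlapped in both assays.

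Pfkp (ENSMUSG00000021196.14), the platelet-type subunit of the same enzyme, was the gene whose libraries separated downward. Footprints were 290, 276 and 274 CPM in WT and 250, 262 and 263 in KO, and RNA-seq gave 179, 173 and 171 CPM against 158, 164 and 164 in libraries labelled KO. The log2 fold changes were -0.12 (SE 0.04) and -0.11 (SE 0.05), and neither passed the threshold (edgeR FDR = 0.0919 and 0.256). Its footprint estimate on the fold scale was 0.922, with a 95% interval from 0.862 to 0.985.

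Aldoa (ENSMUSG00000030695.16), which splits fructose 1,6-bisphosphate into a pair of 3-carbon sugars, had 124, 117 and 109 footprint CPM in WT and 134, 143 and 152 in KO. No KO library reached down to the WT range, and the mean went from 117 ± 7.50 to 143 ± 9.04 CPM (SD, n = 3 each). The fold was 1.22 with a 95% interval from 1.09 to 1.36 (log2 0.28, SE 0.07, edgeR FDR = 0.0304). RNA-seq read 49.1, 54.0 and 56.7 CPM against 52.4, 47.8 and 44.9 in libraries labelled KO (-0.14, SE 0.09, edgeR FDR = 0.378), with overlap. The footprint call was lost on leaving out WT replicate 2 (FDR = 0.0818), WT replicate 3 (0.0733), KO replicate 2 (0.101) or KO replicate 3 (0.0814), each by edgeR.

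Pkm (ENSMUSG00000032294.17), whose splice forms make the M1 and M2 pyruvate kinases that these gene counts do not separate, had 370, 369 and 347 footprint CPM in WT and 415, 415 and 439 in KO. All KO libraries were above all WT libraries. The mean went from 362 ± 13.0 to 423 ± 13.9 CPM (SD, n = 3 each), a fold of 1.17 with a 95% interval from 1.09 to 1.25 (log2 0.22, SE 0.04, edgeR FDR = 0.0170). RNA-seq gave 147, 143 and 169 CPM against 169, 176 and 144 in libraries labelled KO (0.09, SE 0.10, edgeR FDR = 0.651). The footprint call was lost without WT replicate 3 (edgeR FDR = 0.0529), KO replicate 2 (0.0590) or KO replicate 3 (0.0576).

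Ldha (ENSMUSG00000063229.15), the lactate dehydrogenase subunit that predominates in highly glycolytic cells, had 274, 278 and 265 footprint CPM in WT and 318, 313 and 326 in KO. The lowest KO library was above the highest WT library. The mean went from 272 ± 6.47 to 319 ± 6.77 CPM (SD, n = 3 each), a fold of 1.17 with a 95% interval from 1.10 to 1.24 (log2 0.23, SE 0.04, edgeR FDR = 0.00917). RNA-seq values were the most scattered of the 10, at 147, 122 and 167 CPM against 138, 165 and 116 in libraries labelled KO. They overlapped (-0.06, SE 0.16, edgeR FDR = 0.849). For both Hk1 and Ldha the footprint call held in each of the 6 omissions of 1 library, with highest edgeR FDR values of 0.0422 and 0.0399. Each omission left the mirrored library of the same number in the fit. With the replicate number as a block neither was called (edgeR FDR = 0.134 for Hk1 and 0.205 for Ldha).

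Slc16a1 (MCT1, ENSMUSG00000032902.1), a carrier of lactate and pyruvate across the cell membrane, had the most footprint reads of the 10. It read 476, 548 and 567 CPM in WT and 494, 433 and 415 in KO. WT replicate 1 lay below KO replicate 1, so the groups overlapped, with means of 530.4 ± 48.0 and 447 ± 41.6 CPM (SD, n = 3 each). The log2 fold change of -0.24 (SE 0.09) was the lowest of the 10 and missed the threshold (edgeR unadjusted p = 0.0326, FDR = 0.115). RNA-seq gave 180.4, 212 and 180.8 CPM against 195, 161 and 194 in libraries labelled KO (-0.06, SE 0.10, edgeR FDR = 0.781). The authors' deposited table calls Slc16a1 down in footprints (log2 fold change -0.23, adjusted p = 0.0488) and, among the other 9 genes, calls Hk1, Ldha, Pkm and Aldoa up. None of the 10 genes is called in RNA-seq in the authors' deposited table.

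A genotype-by-assay term fitted to all 12 libraries asked whether footprints changed beyond RNA, and 0 of the 10 genes passed, against 0.211% of 11854 genes (0.135% higher, 0.0759% lower, and 0.388% by DESeq2). DESeq2 also called 0, and 1 gene had an unadjusted p under 0.05. That gene was Aldoa, whose log2 difference of 0.43 had a 95% interval from 0.18 to 0.67 (edgeR unadjusted p = 0.00254, FDR = 0.132). Ldha followed at 0.29, with an interval from -0.07 to 0.65 (edgeR FDR = 0.464), and Hk1 at 0.22, from -0.05 to 0.48 (edgeR FDR = 0.458). The median over the 10 was 0.14, with 6 above 0, against 0.01 and 52% over all genes tested. A footprint call without an RNA call was thus not shown to be a difference between the assays for any of the 4 called genes.

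**Figure D2:**
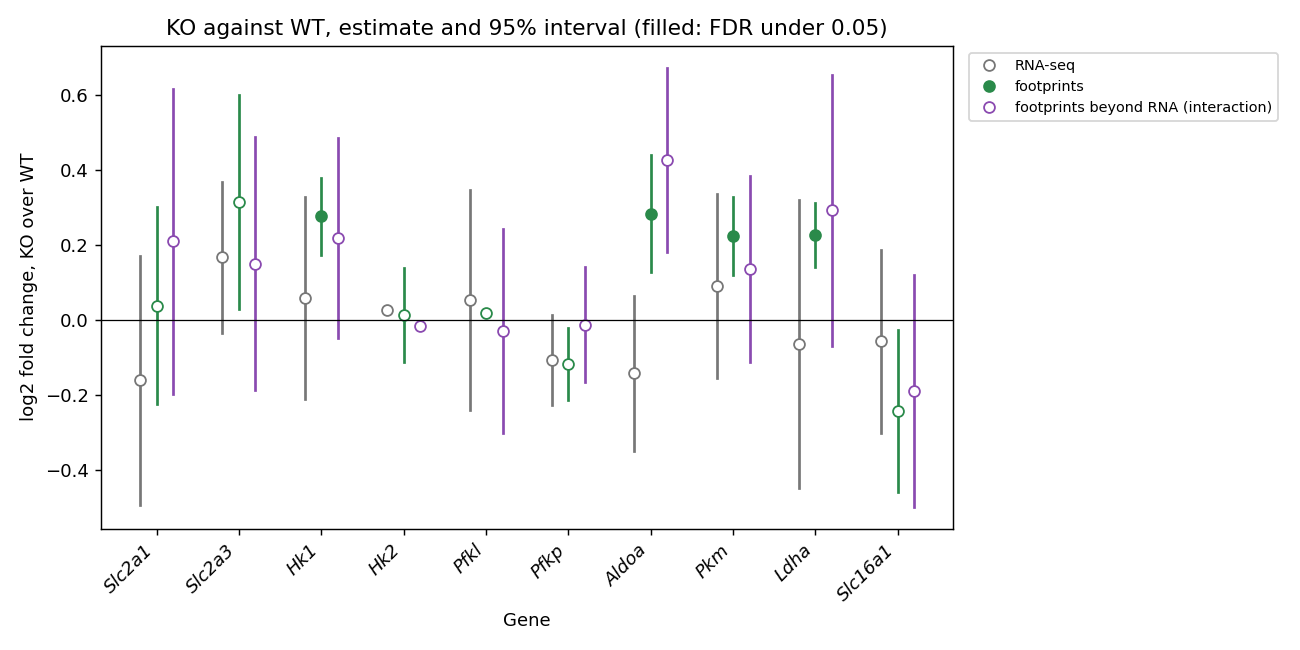
Log2 fold change of KO over WT for each of the 10 genes in RNA-seq (grey), footprints (green) and footprints beyond RNA (purple), with 95% intervals where they could be computed and filled points at FDR under 0.05. Filled points are the footprint values of Hk1, Aldoa, Pkm and Ldha, at 0.22 to 0.28, and every RNA-seq interval drawn spans 0.

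Enzymes of 1 step are encoded by several genes, and the share of a step's reads that falls on 1 gene does not depend on library scaling. Gene lengths were not divided out, so a share is read only between genotypes, and 3 libraries against 3 allow no exact two-sided permutation p under 0.1. Ldha made up 43.2%, 45.1% and 45.1% of Ldha plus Ldhb footprints in WT and 51.5%, 49.6% and 49.6% in KO, a mean difference of 5.76 percentage points without overlap (exact permutation p = 0.1). RNA-seq moved the same way, from 54.3%, 52.8% and 55.4% to 59.8%, 61.1% and 58.2% in libraries labelled KO, also without overlap (exact permutation p = 0.1). Ldhb, the subunit that predominates in oxidative tissue, had 340.4 ± 18.6 footprint CPM in WT and 316 ± 16.5 in KO (SD, n = 3 each, edgeR FDR = 0.241). Its RNA-seq values were 122 ± 12.4 and 93.9 ± 11.0 CPM (SD, n = 3 each, edgeR FDR = 0.0929).

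The other isozyme shares were smaller or differed between assays. Hk2 made up 5.88%, 6.38% and 6.25% of hexokinase footprints in WT and 5.41%, 4.96% and 5.08% in KO without overlap (exact permutation p = 0.1), and both other genes of the set, Hk1 and Hk3, were called higher in KO footprints. In RNA-seq the Hk2 share was 7.13% ± 0.446 and 7.03% ± 0.485 (SD, n = 3 each, exact permutation p = 0.8). Pfkp supplied 66.7% ± 0.592 of phosphofructokinase footprints in WT and 64.1% ± 0.649 in KO without overlap (SD, n = 3 each, exact permutation p = 0.1), and 75.4% and 73.4% of RNA reads with overlap (exact permutation p = 0.3). Pfkm, the muscle-type subunit counted in that set, had 45.6 ± 3.60 and 49.2 ± 4.01 footprint CPM (SD, n = 3 each, edgeR FDR = 0.493). Slc2a1 took 37.5%, 36.9% and 39.4% of Slc2a1 plus Slc2a3 RNA reads in libraries labelled WT. In those labelled KO it took 33.4%, 34.2% and 31.1%, without overlap (exact permutation p = 0.1). Of footprints it took 59.8% ± 2.35 in WT and 55.6% ± 2.25 in KO with overlap (SD, n = 3 each, exact permutation p = 0.2). Over the 8 shares tested, an exact permutation p of 0.1 became 0.16 after Benjamini-Hochberg adjustment.

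**Figure D3:**
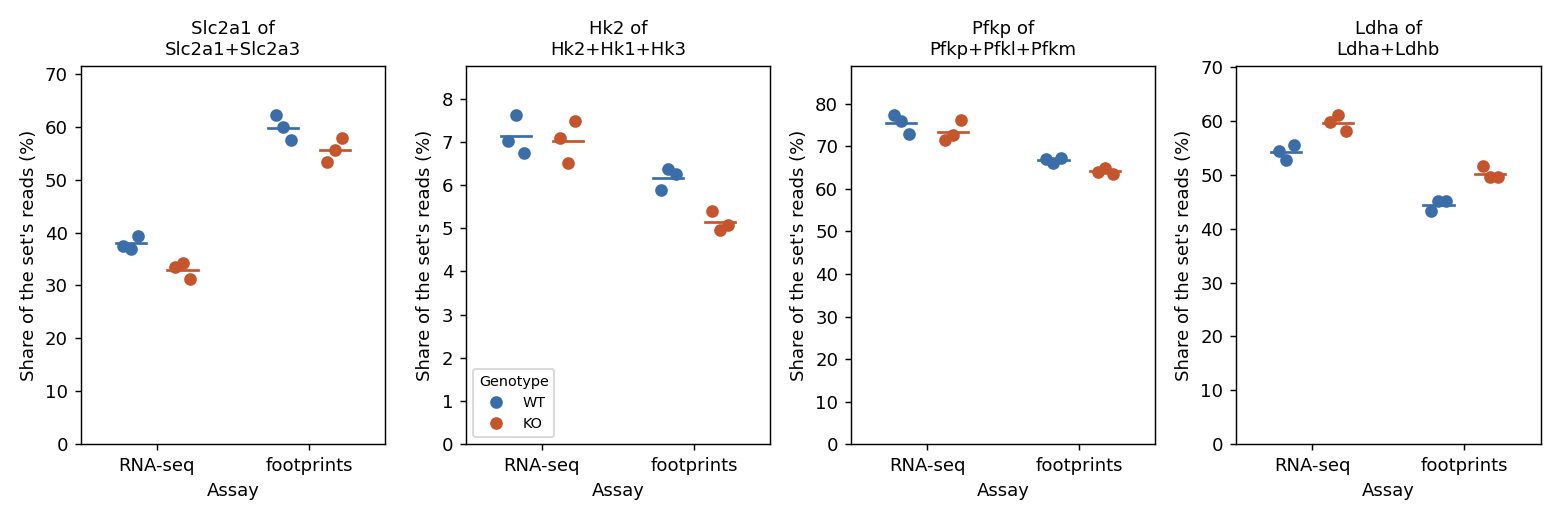
Share of a step's reads, in percent, that fell on Slc2a1, Hk2, Pfkp or Ldha in RNA-seq and footprints, with 1 point per library and lines at the means of 3 WT (blue) and 3 KO (orange) libraries, each axis starting at 0. Ldha points in KO lie above WT in both assays. Slc2a1 points in KO lie below WT in RNA-seq, and Hk2 and Pfkp points in KO lie below WT in footprints.

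All 10 genes carried more footprints per RNA read than the median gene, in WT and in KO. Over 11853 genes with both measures, the WT ratio placed Slc16a1 at percentile 90.6, Slc2a1 at 90.5, Hk1 at 89.8, Pkm at 87.1, Pfkl at 86.6 and Hk2 at 86.0. Aldoa followed at 85.2, Ldha at 80.4, Pfkp at 74.8 and Slc2a3 at 61.3. The median of the 10 lay 1.401 log2 units above that of all genes (SD 0.157 over the 3 equally numbered WT pairs). Footprints lie in coding sequence while RNA reads also cover untranslated ends, and the part of gene structure in these ranks was not tested.

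Of the other 24 listed glycolysis genes, 16 were tested in footprints, and 6 rose in KO while 0 fell, 37.5% against 17.6% of all genes. Eno1, the enolase that makes phosphoenolpyruvate, went from 121, 118 and 114 CPM in WT to 156, 160 and 164 in KO (log2 0.44, SE 0.04, edgeR FDR = 0.00159). Gapdh, the step that reduces NAD, went from 170, 207 and 176 CPM to 268, 217 and 257 (0.42, SE 0.11, edgeR FDR = 0.0402), and Pfkfb3, which makes the allosteric activator of phosphofructokinase, from 43.6, 41.9 and 40.4 CPM to 50.2, 52.2 and 54.0 (0.30, SE 0.05, edgeR FDR = 0.00924). In all of these KO and WT libraries did not overlap. The remaining calls, Hk3 (1.00, edgeR FDR = 0.0280), Pfkfb4 (0.59, 0.0213) and Pgam1 (1.38, 0.00646), lie at low counts, and Pfkfb4 and Pgam1 were named after their values were seen. Hk3 read 1.82 ± 0.419 CPM in WT and 3.24 ± 0.905 in KO (SD, n = 3 each) with overlap. DESeq2 did not call Hk3 (adjusted p = 0.101) or Pfkfb4 (0.0613) and gave no adjusted p for Pgam1. The Eno1 and Pgam1 calls held in each of 6 omissions of 1 library, the Pfkfb3 call in 5 (FDR = 0.0521 without KO replicate 2), Pfkfb4 in 4 (lost without replicate 2 of either genotype), and Gapdh and Hk3 in 2, all by edgeR. Gapdh was lost without replicate 1 or 3 of either genotype (highest FDR = 0.103), and Hk3 without replicate 1 or 2 of either (highest FDR = 0.121).

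RNA-seq called 2 of 14 tested in that list, 14.3% against 6.91% of all genes. They were Pfkfb3, up in libraries labelled KO (0.31, edgeR FDR = 0.0177), and Eno2, down at 2.75 and 1.33 CPM (-1.06, edgeR FDR = 0.0315), the latter named after its value was seen. Both calls, and the RNA-seq call of Pdp1, were lost on omitting any of the 6 libraries (highest edgeR FDR = 0.0932, 0.134 and 0.145), and DESeq2 called neither Pfkfb3 nor Eno2 (adjusted p = 0.128 and 0.383). Eno1 and Gapdh were not called there (-0.09 and 0.17, edgeR FDR = 0.598 and 0.478). None of 12 tested passed for footprints beyond RNA by edgeR, while DESeq2 called Eno1 (edgeR log2 0.53, FDR = 0.0562, DESeq2 adjusted p = 0.0150). Many glycolytic genes have near-identical copies in the genome, and 17.7% to 18.6% of footprint counts and 13.1% to 20.5% of RNA counts were set apart as aligned to several places. Pgk1, an enzyme every cell uses, kept 260 RNA and 40 footprint reads over all libraries and was not tested in footprints, and Pgam1 kept 51 and 63. Levels of Aldoa, Pkm, Ldha, Gapdh and Eno1 are therefore uncertain where reads could be shared with copies.

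**Figure D4:**
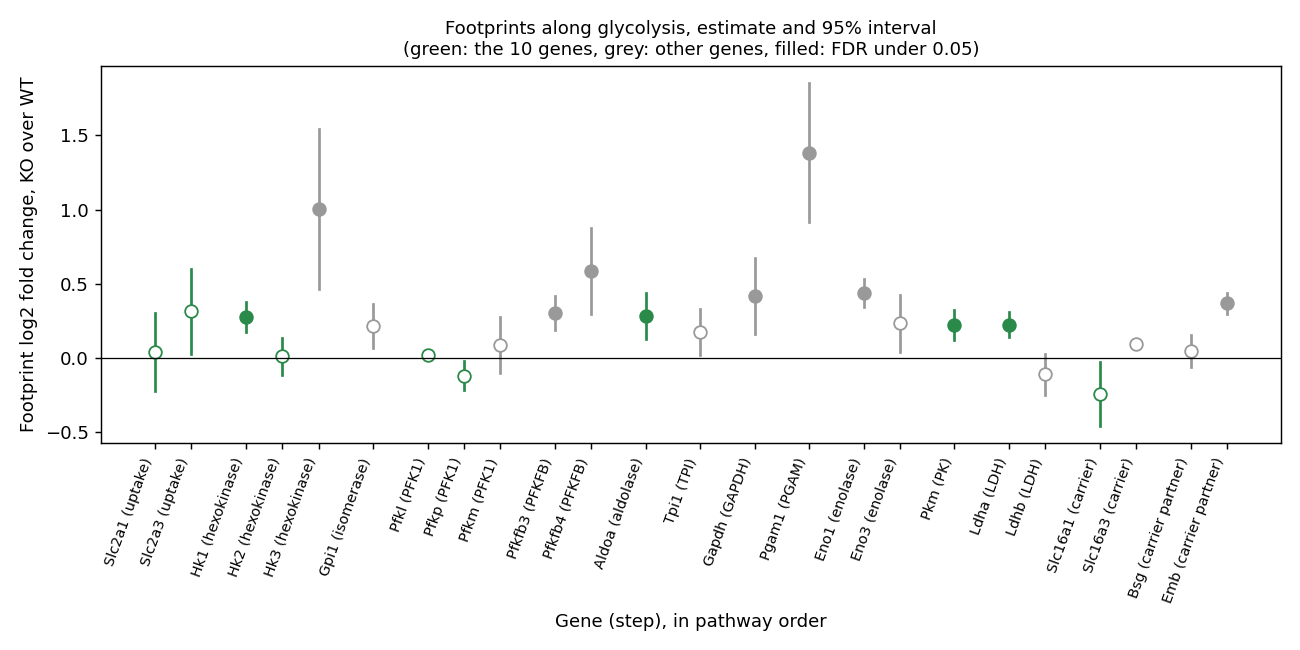
Footprint log2 fold change of KO over WT for the 10 genes (green) and other tested genes of the same steps (grey) in pathway order, with 95% intervals where they could be computed and filled points at FDR under 0.05. Filled points run from 0.22 for Pkm to 1.38 for Pgam1, all above 0, and Pfkp, Ldhb and Slc16a1 lie below 0 with open points.

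Among 15 other listed carriers of glucose and lactate, 8 were tested in footprints and 1 rose, 12.5% against 17.6% of all genes. It was Emb, or embigin, a membrane partner of monocarboxylate carriers, at 204, 202 and 206 CPM in WT and 263, 266 and 259 in KO (0.37, SE 0.03, edgeR FDR = 0.00119), and the call held in all 6 omissions. Its RNA-seq values did not overlap either, at 148 ± 15.2 and 193 ± 17.5 CPM (SD, n = 3 each), with no edgeR call (0.38, FDR = 0.0761) but a DESeq2 call (adjusted p = 0.0369). By edgeR 0 of 6 tested carriers were called in RNA-seq, against 6.91% of all genes. Bsg, or basigin, the other partner, stood at 233 ± 9.19 and 241 ± 8.91 footprint CPM (SD, n = 3 each, edgeR FDR = 0.532) and was named after its value was seen. In the pentose phosphate pathway, which branches off after hexokinase, 1 of 8 rose in footprints, again 12.5% against 17.6% of all genes. For RNA-seq edgeR called 0 of 8, against 6.91% of all genes. Tkt, transketolase, went from 496 ± 23.4 to 571 ± 26.4 footprint CPM (SD, n = 3 each, log2 0.20, edgeR FDR = 0.0432), a call kept in 1 of 6 omissions, that of WT replicate 2.

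Of 12 genes that pass pyruvate into mitochondria, 1 rose and 2 fell in footprints, 25% against 17.6% of all genes. Dlat, a subunit of pyruvate dehydrogenase, fell (-0.27, SE 0.06, edgeR FDR = 0.0224) and so did Pdk1, a kinase that inhibits that enzyme (-0.48, SE 0.12, edgeR FDR = 0.0357), while the kinase Pdk3 rose (0.16, SE 0.04, edgeR FDR = 0.0284). Dlat was lost without replicate 2 of either genotype or KO replicate 3, Pdk1 without replicate 1 or 2 of either genotype, and Pdk3 in every omission (highest edgeR FDR = 0.0825, 0.104 and 0.115). DESeq2 called Pdk1 (adjusted p = 0.00142) but not Dlat (0.0561) or Pdk3 (0.376). In RNA-seq edgeR called 1 of 12, 8.33% against 6.91% of all genes. It was the activating phosphatase Pdp1, up in libraries labelled KO (0.55, SE 0.12, edgeR FDR = 0.0490), which DESeq2 did not call (adjusted p = 0.161). DESeq2 called Pdk1 down in RNA-seq (adjusted p = 0.00801), at 208 ± 31.5 CPM labelled WT and 144 ± 23.1 labelled KO without overlap (SD, n = 3 each, edgeR log2 -0.52, FDR = 0.0952). Pdp1 had a footprint log2 fold change of 0.30 (edgeR FDR = 0.0537).

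Of 28 listed regulators of glycolysis, 2 rose and 5 fell in footprints, 25% against 17.6% of all genes, and 16 of the 28 had estimates above 0. Rptor, the raptor subunit of mTOR complex 1, went from 94.2, 94.3 and 101 CPM to 73.2, 72.9 and 67.8 (-0.43, SE 0.05, edgeR FDR = 0.00323). Myc, an activator of glycolytic genes, went from 181.4, 181.1 and 183 CPM to 160.4, 160.3 and 158 (-0.19, SE 0.03, edgeR FDR = 0.00917). The kinase Pdpk1, which activates Akt, fell (-0.24, SE 0.04, edgeR FDR = 0.0144), and so did Pik3cb, a catalytic subunit of PI3K (-0.53, SE 0.12, edgeR FDR = 0.0293). The other footprint calls, named after their values were seen, were Pik3r1, a regulatory subunit of PI3K, up from 298 ± 15.7 to 362 ± 18.7 CPM (SD, n = 3 each, log2 0.28, edgeR FDR = 0.0206), Arnt, the shared partner of the hypoxia factors, up (0.15, edgeR FDR = 0.0365), and Egln1, an oxygen-sensing hydroxylase that marks those factors for breakdown, down (-0.30, edgeR FDR = 0.0196). In RNA-seq 1 of 28 rose and 2 fell, 10.7% against 6.91% of all genes. Pik3r1 rose (0.25, edgeR FDR = 0.0353) and Egln1 fell (-0.43, edgeR FDR = 0.0256). Pik3cb also fell, at 17.8 ± 1.42 CPM in libraries labelled WT and 9.88 ± 0.771 in those labelled KO (SD, n = 3 each, log2 -0.84, edgeR FDR = 0.00911). The Rptor call held in all 6 omissions and that of Myc in 5, lost without KO replicate 1 (edgeR FDR = 0.0525) and by DESeq2 (adjusted p = 0.0843). Pdpk1 was lost without replicate 2 of either genotype, and Pik3cb footprints without replicate 1 or 3 of either (highest edgeR FDR = 0.0609 and 0.105) and by DESeq2 (adjusted p = 0.107), which did not call Arnt or Egln1 in footprints either (0.254 and 0.219). Pik3cb RNA was lost without KO replicate 1 (edgeR FDR = 0.0508).

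Markers of other cells and stages were read beside these values, and no listed marker was at 0 reads in every library. Among all genes in footprints, edgeR called 17.6%, and KO and WT libraries did not overlap for 38.1%. Thymocyte identity genes summed to 8520.2 to 9412 footprint CPM in WT and 9207 to 10146 in KO, with 1 of 8 up and 1 down. Cycling genes summed to 6433 to 7552 footprint CPM in WT and 5932 to 6992 in KO, with 0 of 10 called in either assay by edgeR. Double-positive stage genes summed to 20141 to 20945 CPM in WT and 19370 to 20119 in KO without overlap, with 1 of 8 up and 1 down. That order rests on Rag1, at 9569 to 10286 CPM in WT and 7815 to 8387 in KO: without it, chosen after its values were seen, the other 7 genes summed to 10157 to 10659 CPM in WT and 11555 to 12117 in KO. Of the stage lists, double-negative genes had 1 of 7 up and 1 down in footprints, and mature single-positive genes 2 of 7 up and 1 down, both with overlapping sums. The lists of B cells (1 of 6 up), erythroid cells (1 of 5 down), myeloid cells (0 of 5) and thymic epithelium and stroma (1 of 10 down) also had overlapping footprint sums.

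In RNA-seq the marker lists had up to 2 genes called each, where edgeR called 6.91% of all genes. Called up were 1 of 7 double-negative genes and 1 of 8 double-positive genes. Called down were 2 of 7 mature single-positive genes, 1 of 8 identity genes, 1 of 5 erythroid genes and 1 of 8 stroma genes. For B cells and for myeloid cells 0 of 6 were called. Taken singly, 30.9% of all genes had no overlap of KO and WT libraries, and no such share was computed for sums. Summed RNA levels did not overlap for double-negative genes (260.4 to 276 CPM labelled WT, 302 to 316 labelled KO), B cells (237 to 271, 287 to 330), erythroid cells (76.6 to 91.8, 46.6 to 59.0) and stroma (45.5 to 49.8, 35.5 to 38.7). Leaving out of each list the gene whose group means differed most, a step added after the values were seen, left the sums overlapping for double-negative genes without Il2ra (204 to 228, 197 to 225) and B cells without Ighm (12.2 to 17.2, 17.0 to 23.1). Erythroid sums without Hbb-bs (33.4 to 45.7, 17.8 to 27.9) and stroma sums without Krt5 (39.8 to 44.2, 33.4 to 36.4) still did not overlap. The part of cell composition in the footprint values of the 10 genes was not tested.

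Promoters of 9 of the 10 genes were matched in RefSeq (GRCm38.p6), 14 start sites in all, with no entry for Slc2a3. The E-box CACGTG, a palindrome that Myc binds and that contains ACGTG, the core bound by the hypoxia factors, was searched in the 250 bases before each start because Myc and the hypoxia factors are among the listed regulators. It was present at 2 of the 14 start sites, 1 each of Ldha and Slc16a1, and in 6.02% of 32851 promoters. ACGTG on either strand was present at 7 of the 14, in 6 of the 9 genes, and in 16.6% of promoters. These percentages are per promoter, and a gene with several start sites counts if any has the motif. Aldoa start sites 2 and 3, both with ACGTG, have overlapping windows, and enrichment was not tested. In Ldha CACGTG begins 145 and 48 bases before the start and in Slc16a1 200 bases before it. The pair is shown because these are the start sites with the motif. Ldha footprints rose in KO, Slc16a1 did not pass the test, and the difference between the genes was not tested. Bases run 5′ to 3′ with CACGTG in capitals.
Ldha, chr7:46845554-46845803, plus strand: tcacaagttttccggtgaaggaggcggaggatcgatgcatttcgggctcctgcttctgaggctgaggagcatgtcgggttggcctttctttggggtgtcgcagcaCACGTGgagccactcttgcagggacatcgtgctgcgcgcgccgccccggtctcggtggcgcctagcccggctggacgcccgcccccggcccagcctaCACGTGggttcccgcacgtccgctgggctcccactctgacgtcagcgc
Slc16a1, chr3:104638414-104638663, plus strand: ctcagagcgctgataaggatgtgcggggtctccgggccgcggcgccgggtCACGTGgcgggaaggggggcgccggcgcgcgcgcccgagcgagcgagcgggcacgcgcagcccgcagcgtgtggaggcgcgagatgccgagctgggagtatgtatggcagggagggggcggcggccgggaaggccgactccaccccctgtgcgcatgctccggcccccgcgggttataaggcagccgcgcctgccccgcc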

How the data were processed

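Counts of reads per Ensembl gene were deposited by the authors as whole numbers, 1 table per assay, and named adjusted; neither labels nor headers say what was adjusted. The submitters' processing notes name FastQC, Bowtie2 2.5.1, STAR 2.7.10a, HTSeq 2.0.3 and DESeq2 1.40.2. No build, annotation or strand setting of the counts is stated in the sources used here. Counted genes are thus given without coordinates, and overlapping genes cannot be told apart. Coordinates printed above belong to the RefSeq microRNA and promoter sequences, not to the counts. Per the labels' protocols, a commercial kit for ribosome profiling was used for the libraries. Rows naming no gene, 71.5% to 73.0% of RNA-seq and 26.9% to 27.7% of footprint counts, were left out. A second row for Aldoa with 0 to 9 reads per library was not used, nor were 12 columns of per-library values in the authors' deposited comparison tables, from which only log2 fold changes and adjusted p-values were copied.

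Each assay was fitted over all genes with edgeR 4.0.16 in R 4.3.3 (TMM, filterByExpr with a minimum count of 10, quasi-likelihood test, Benjamini-Hochberg adjustment, threshold 0.05). Footprints beyond RNA were tested with a genotype-by-assay term in genes kept in both. CPM values are relative to TMM-scaled totals. SE is the size of the log2 fold change over the square root of the F statistic, and is left out, with its interval, where edgeR raised the p above that of the F test. On simulated counts, 2-fold changes were recovered for 77.4% of 195 changed genes in RNA-seq (13538 genes run, 6 false calls). They were recovered for 83.9% of 192 in footprints (13346 genes, 4 false calls) and 45.6% of 195 for the interaction (11775 genes, 1 false call). The simulated libraries were independent, with the same dispersion for all genes, and held no mirrored deviations. Changes below 2-fold, such as those called among the 10 genes, were not simulated. Recovery and false calls therefore do not measure power or error for those calls.

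The 10 genes, the 5 pathway lists and the 9 marker lists were chosen with earlier results of these data known. Besides the 10 genes, the text names up to 4 genes per pathway list with the smallest adjusted p among those called, given an average log2 CPM of 3 or more, the isozymes Hk3, Pfkm and Ldhb, and Mir181a-1. Nothing states that replicates came from separate mice beyond the count of 3 per genotype. Alternatives were RLE scaling, no filter, DESeq2 1.42.0, the replicate number as a block, and leaving out each library. Levels per kilobase were not computed, because no table of gene lengths was used here.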

Additional observations from a re-analysis of the deposited data

How the results depend on the processing

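RLE scaling, no filter and DESeq2 left 4 of the 10 genes called in footprints and 0 in RNA-seq and in the interaction, and without 1 library the footprint count ranged from 2 to 4. Pathway-list calls in footprints went from 18 to 9 with DESeq2 and to 7 to 13 without 1 library. In RNA-seq they went from 6 to 0 to 1 without 1 library. In the interaction they went from 0 to 1 with DESeq2 and to 0 to 1 without 1 library. The lists had 16, 8, 8, 12 and 28 genes tested in footprints and 14, 6, 8, 12 and 28 in RNA-seq. Of all genes, edgeR called 17.6% and DESeq2 9.24% in footprints, and edgeR called 6.91% in RNA-seq. In the interaction edgeR called 0.211% and DESeq2 0.388%. Shares of all genes are not given for fits without 1 library. No estimate of the 10 genes changed sign with RLE scaling, no filter, DESeq2 or the block. Signs turned only without 1 library, in values near 0. The RNA-seq log2 fold changes ranged from -0.0173 to 0.145 for Hk1, -0.00768 to 0.0780 for Hk2, -0.0121 to 0.153 for Pfkl, -0.201 to 0.0496 for Ldha and -0.105 to 0.0236 for Slc16a1. Footprint values ranged from -0.0315 to 0.135 for Slc2a1 and -0.00641 to 0.0280 for Hk2, and the interaction from -0.0763 to 0.0117 for Hk2, -0.142 to 0.0308 for Pfkl and -0.0390 to 0.0141 for Pfkp. The Hk2 share of RNA reads differed by -0.330 to 0.153 percentage points, and the median footprint to RNA ratio of the 10 genes by 1.36 to 1.46 log2 units. The causes were not tested.

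With the replicate number as a block, 0 of the 10 genes and 0 pathway genes were called in RNA-seq, 0 and 3 in footprints, and 0 and 0 in the interaction, where 110, 408 and 2 genes were called in all (0.806%, 3.02% and 0.0169% of those tested). Block FDR values in footprints were 0.134 for Hk1, 0.161 for Aldoa, 0.220 for Pkm and 0.205 for Ldha, while Eno1 (0.0259), Emb (0.0438) and Rptor (0.0378) passed. Same-numbered libraries of the genotypes are tied in the data, with opposite deviations. The fit without the block treats such libraries as independent, and its footprint SE was the smaller. It was 0.04 against 0.08 with the block for Hk1, Pkm and Ldha, and 0.07 against 0.09 for Aldoa. Which fit has the spread nearer to that between mice was not tested. The 4 calls rest on the fit without the block, whose SE and FDR values may be too small. Hk2, the least-read of the 10 genes, had 36 to 62 RNA reads per library. The part of counting noise in its spread was not tested.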
